A study of Mus musculus with 6 samples.

Results

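The enzymes that carry glucose to pyruvate, turn pyruvate into lactate or feed it to the mitochondrion were followed at the RNA level in orthotopic liver tumors. These were 33 of 55536 genes in the raw count table. They were chosen by symbol for their place in glycolysis or in the pyruvate dehydrogenase complex, with earlier results of these data known. They were grouped by role into 12 genes of entry and the first phase of glycolysis (hexokinase to triose phosphate isomerase), 9 of the second phase (GAPDH to pyruvate kinase), 2 lactate dehydrogenases, 5 parts of the pyruvate dehydrogenase complex (PDC) and 5 kinases and phosphatases that control it. Of the 33, 32 passed the filter on low counts. Hkdc1, a hexokinase family gene, did not, with levels between 0.0406 and 0.116 RPKM in all 6 libraries.

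Glycolysis splits glucose in the cytosol. Its first phase spends ATP to make triose phosphates, and its second phase recovers ATP and ends in pyruvate. Pyruvate is then either reduced to lactate by lactate dehydrogenase or oxidized to acetyl-CoA by the PDC, which pyruvate dehydrogenase kinases switch off and the matching phosphatases switch on. Hepatocytes use isozymes of their own at several steps, such as the liver pyruvate kinase Pklr, whereas tumor cells commonly use Hk2, Aldoa and Pkm.

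HCA-1 cells, a murine hepatocellular carcinoma (HCC) line, were implanted under the liver capsule of male C3H mice (C3H/HeNCrNarl in the study's methods) aged 6 to 8 weeks, and all 6 libraries come from such tumors. The Control group (replicates 5, 6 and 7) was untreated. The GOx-DOX-LGP group (replicates 1, 2 and 5, labelled GOX_DOX) received by the intravenous route a lipid-gelatin-protamine nanogel that carries glucose oxidase (GOx), an enzyme that consumes glucose and releases hydrogen peroxide, and doxorubicin (DOX), a DNA-damaging drug. With no empty nanogel and no single-agent tumor among these libraries, the effects of GOx, DOX and carrier cannot be told apart. The labels place dosing on days 18, 19 and 20 and the RNA analysis after 3 h of circulation on day 17, whereas the study's methods give the same dosing days and place the harvest on the day after the last dose. Which holds for these libraries cannot be told from the labels. They do not say that each library came from a separate animal, and p-values therefore measure only the spread between libraries.

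The libraries held between 15529940 and 18401178 counts, and they did not fall apart by treatment alone. The 10 hepatocyte markers (Alb, Ttr, Apoa1 and others) summed to 718 CPM (counts scaled to library size) in Control 5, 129878 in Control 6 and 206727 in Control 7, against 1536 to 3771 in the treated libraries. Control 5 thus stood apart from Controls 6 and 7 and lay near the treated tumors. Proliferation markers went the other way, at 886, 257 and 37.2 CPM in Controls 5, 6 and 7 and at 620 to 781 CPM after treatment. Summed leukocyte markers lay between 460 and 1092 CPM in the controls and between 1016 and 2790 CPM in the treated libraries. Lyz2 made up most of this sum in every library. Summed fibroblast markers lay between 1406 and 5709 CPM in the controls and between 2186 and 6873 CPM in the treated libraries. The genes of this list did not go together. Col1a1, at 2281, 334 and 223 CPM in Controls 5, 6 and 7, fell in that order, as did Col1a2, Col3a1 and Pdgfrb. Dcn, at 121, 447 and 515 CPM, and Lum rose. Erythroid markers, at 13.2, 406 and 425 CPM in the controls, followed the hepatocyte list, and endothelial markers lay between 113 and 250 CPM in the controls and between 84.9 and 96.6 CPM after treatment. Summed HCC markers did not separate the groups, at 34.9 to 88.5 CPM and 56.3 to 82.4 CPM, and their defining gene Afp was at most at 13.2 CPM in any library. Krt19 made up most of this sum in every library but Control 7, where it was at 13.0 CPM. Gpc3 was at 1.10, 2.29 and 2.15 CPM in the controls and 0.939, 0.784 and 0.884 after treatment. The other genes of the list overlapped between groups. Skeletal muscle markers stayed below 1 CPM and neuronal markers at 3.73 to 24.8 CPM. No marker was at 0 in all libraries. In bulk tumors, fewer cells of a type and less RNA per cell cannot be told apart.

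Levels below are counts per kilobase of exon and per unit of library size (RPKM) with TMM-scaled library sizes, always in the order Control 5, 6 and 7 and then GOx-DOX-LGP 1, 2 and 5. Fold changes are log2 values of treated over control with their standard error (SE), and adjusted p-values are from edgeR's quasi-likelihood test with Benjamini-Hochberg adjustment over 15374 genes.

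Because several of these genes are textbook targets of hypoxia-inducible factors and of E-box proteins, whose sites share the letters ACGTG, the 250 bases before the RefSeq start site are shown for 7 members whose levels the results turn on (GRCm38.p6, read 5′ to 3′ along the gene). Capitals mark ACGTG, or CACGT where it lies on the other strand. The stretches of Pfkl and Eno2 held 0 sites. Ldha, Aldoa and Pdk2 each have a further RefSeq start whose stretch held 0, and for these the stretch with a site is shown.
Pgk1, chrX:106186850-106187099, plus strand: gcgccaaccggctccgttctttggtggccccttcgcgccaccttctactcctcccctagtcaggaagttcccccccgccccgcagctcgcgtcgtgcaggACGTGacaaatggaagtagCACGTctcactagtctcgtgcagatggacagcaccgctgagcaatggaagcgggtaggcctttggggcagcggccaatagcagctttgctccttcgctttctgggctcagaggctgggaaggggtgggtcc
Ldha, chr7:46845554-46845803, plus strand: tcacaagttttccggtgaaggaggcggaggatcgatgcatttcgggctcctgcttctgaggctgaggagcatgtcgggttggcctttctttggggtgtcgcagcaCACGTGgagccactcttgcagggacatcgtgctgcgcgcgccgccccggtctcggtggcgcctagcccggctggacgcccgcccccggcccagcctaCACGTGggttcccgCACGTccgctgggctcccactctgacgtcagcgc
Aldoa, chr7:126799255-126799504, minus strand: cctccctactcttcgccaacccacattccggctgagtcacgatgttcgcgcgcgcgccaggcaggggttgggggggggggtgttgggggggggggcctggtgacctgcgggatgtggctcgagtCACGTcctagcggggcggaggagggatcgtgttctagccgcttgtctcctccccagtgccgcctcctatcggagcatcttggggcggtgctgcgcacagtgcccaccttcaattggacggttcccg
Hk2, chr6:82774455-82774704, minus strand: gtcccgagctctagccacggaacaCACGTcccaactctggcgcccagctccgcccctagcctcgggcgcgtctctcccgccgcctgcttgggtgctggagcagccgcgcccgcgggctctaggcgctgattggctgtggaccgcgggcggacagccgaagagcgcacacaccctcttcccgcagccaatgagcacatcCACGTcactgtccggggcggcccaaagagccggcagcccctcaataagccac
Pdk2, chr11:95041372-95041621, minus strand: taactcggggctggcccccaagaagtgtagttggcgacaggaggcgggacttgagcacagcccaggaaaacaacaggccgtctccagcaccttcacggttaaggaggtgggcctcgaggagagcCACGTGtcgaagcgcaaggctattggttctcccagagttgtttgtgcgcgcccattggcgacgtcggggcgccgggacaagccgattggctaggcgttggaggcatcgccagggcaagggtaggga
Pfkl, chr10:78009808-78010057, minus strand: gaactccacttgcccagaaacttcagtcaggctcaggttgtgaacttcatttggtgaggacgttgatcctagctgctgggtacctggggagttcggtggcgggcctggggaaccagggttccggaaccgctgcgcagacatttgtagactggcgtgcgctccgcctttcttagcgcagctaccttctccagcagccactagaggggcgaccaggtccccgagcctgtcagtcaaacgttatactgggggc
Eno2, chr6:124769674-124769923, minus strand: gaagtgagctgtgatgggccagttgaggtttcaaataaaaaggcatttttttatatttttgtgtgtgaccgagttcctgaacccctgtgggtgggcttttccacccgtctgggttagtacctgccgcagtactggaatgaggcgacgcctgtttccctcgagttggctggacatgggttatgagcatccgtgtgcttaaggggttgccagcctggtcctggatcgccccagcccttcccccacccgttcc

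The motif ACGTG was searched on both strands, with CACGTG, which holds it on each strand, counted once. It was present in 19 of 46 RefSeq promoter windows of the members (41.3%), each from 250 bases before to 50 bases after a start site, and in 6447 of 32851 such windows of all genes (19.6%). By gene, 16 of 32 matched members had at least 1 window with it (50%), against 21.8% of all genes. Pdp1 was not matched. Of the 10 members whose treated levels all lay above the controls, 5 had the motif, the same share as among all matched members. Of the 3 with all treated levels below, 0 did, and 3 members are too few to compare. Ldha had 3 sites in its window, Pgk1 and Hk2 had 2 each, and Pdk2, whose level was lower in the treated group, had 1. Other motifs also differed in frequency by gene. GGGCGG was present in 65.6% of matched members and 38.2% of all genes, and TATAAA in 3.13% and 15.7%. A match is a description of letters and not of a bound site.

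The main comparison asked how the RNA for this pathway differed between treated and untreated tumors. Genes of the glycolytic trunk had mostly higher levels after GOx-DOX-LGP and genes of the PDC mostly lower ones, but no member passed the threshold. Of 32 members, 0 had an adjusted p under 0.05 in edgeR, and the share over all genes was 0% as well. The smallest adjusted p of a member was 0.247. On counts simulated with the spread of these data, edgeR's test recovered 0 of 200 genes that differed by 2 on the log2 scale. A count of 0 called therefore does not show that levels were equal. At an unadjusted p under 0.05, 4 members were higher (Gpi1, Pfkl, Aldoa and Pgk1) and 4 lower (Pdhx, Dld, Pdk2 and Pdp2), while 2.87% of all genes tested were higher and 14.6% lower at this level. DESeq2 called Pfkl and Pgk1 higher and Pdk2 lower, against 0.684% and 9.85% of all genes. On counts simulated with the spread of these data over 15374 genes, DESeq2 made 76 false calls beside 107 true ones. In the data, limma voom with sample quality weights called 9254 genes, whereas voom called 0 on the simulated counts. The simulation thus did not reproduce how often genes were called in the data. Its share of false calls cannot be carried over to the DESeq2 calls of Pfkl, Pgk1 and Pdk2. By sign, 19 members were higher and 13 lower, with a median log2 fold change of 0.35 beside 0.02 over all genes tested. With library totals in place of TMM, the median of all genes moved to 0.51 and that of the members to 0.86, with 26 higher and 6 lower.

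The 3 treated values lay above all 3 controls for 10 members (Hk1, Gpi1, Pfkl, Pfkp, Aldoa, Pgk1, Eno1, Eno2, Pkm and Ldha) and below them for 3 (Pdhx, Dlat and Dld). Over all genes tested, 8.87% did not overlap with higher and 8.31% with lower treated values. The 3 lower members, of 32 tested, are near the share over all genes. All of the 10 belong to glycolysis or lactate formation. All of the 3 are parts of the PDC, which is a description only.

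**Figure D1:**
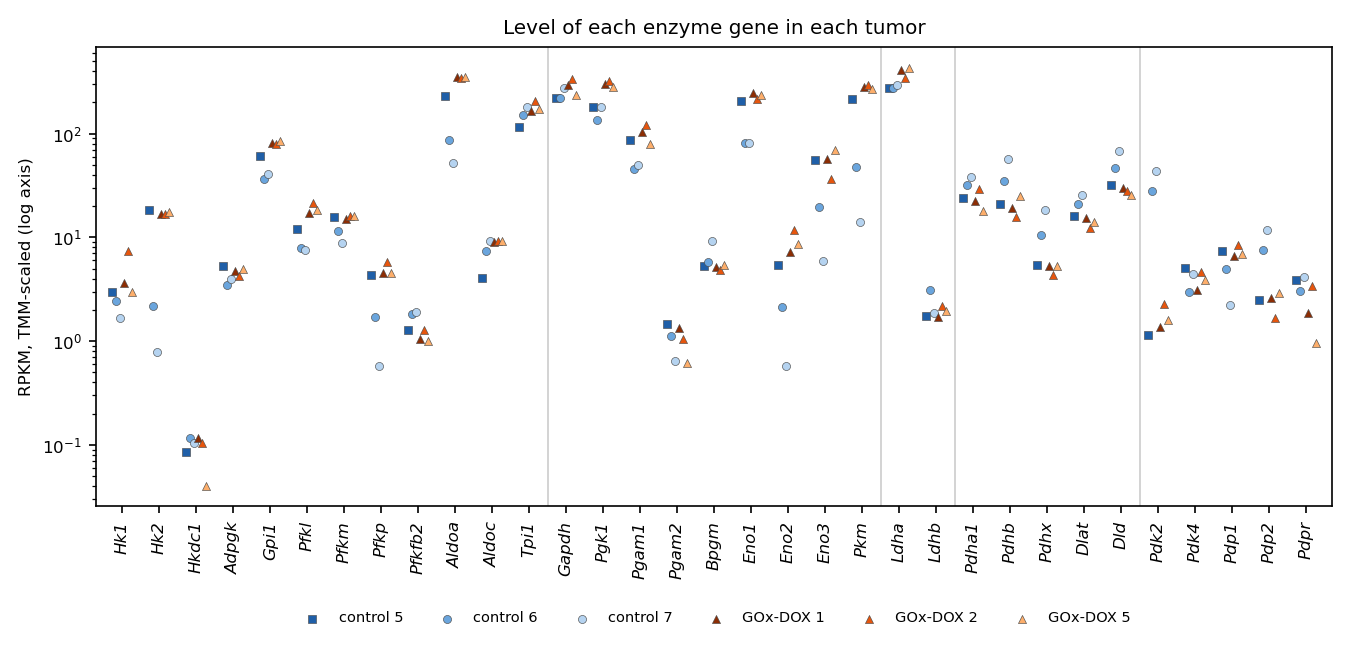
Level of each of the 33 genes in each of the 6 tumor libraries, in RPKM with TMM-scaled library sizes on a log axis, with 1 point per library and the genes in pathway order. Treated points lie close together for most genes, whereas Controls 6 and 7 lie far from Control 5 for Hk2, Pkm and Pdk2.

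Much of the spread behind these tests lay within the control group. When Control 5 was left out, edgeR called 14 members higher and 7 lower, against 22.2% and 25.5% of all genes. When the treated libraries were instead set beside Control 5 alone, all 3 lay above it for 14 of 32 members and below it for 8, against 26.0% and 28.4% of all genes tested, and the median log2 ratio of the members was 0.08. Controls 6 and 7 are also the libraries with the high hepatocyte marker sums. With the hepatocyte score as a covariate, 18 members were higher and 14 lower, and 0 were called. The score, the mean log2 CPM of the hepatocyte markers, was 12.8 and 13.3 in Controls 6 and 7. It was 5.38 in Control 5 and 6.56 to 7.82 in the treated libraries. It thus mainly marks Controls 6 and 7, and hepatocyte content and treatment cannot be told apart by this fit. The covariate moved the log2 fold change of Pdk2 from -3.80 to -0.53, of Pdp2 from -1.60 to -0.48 and of Pdhx from -1.20 to -0.43. It moved that of Pdhb from -0.93 to -0.33 and of Eno2 from 1.74 to 1.15. Not all members shrank. Aldoc rose from 0.41 to 0.93 and Tpi1 from 0.29 to 0.52, while Pdpr went from -0.83 to -0.91. Pgk1 moved from 0.87 to 0.79 and Ldha from 0.47 to 0.50.

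**Figure D2:**
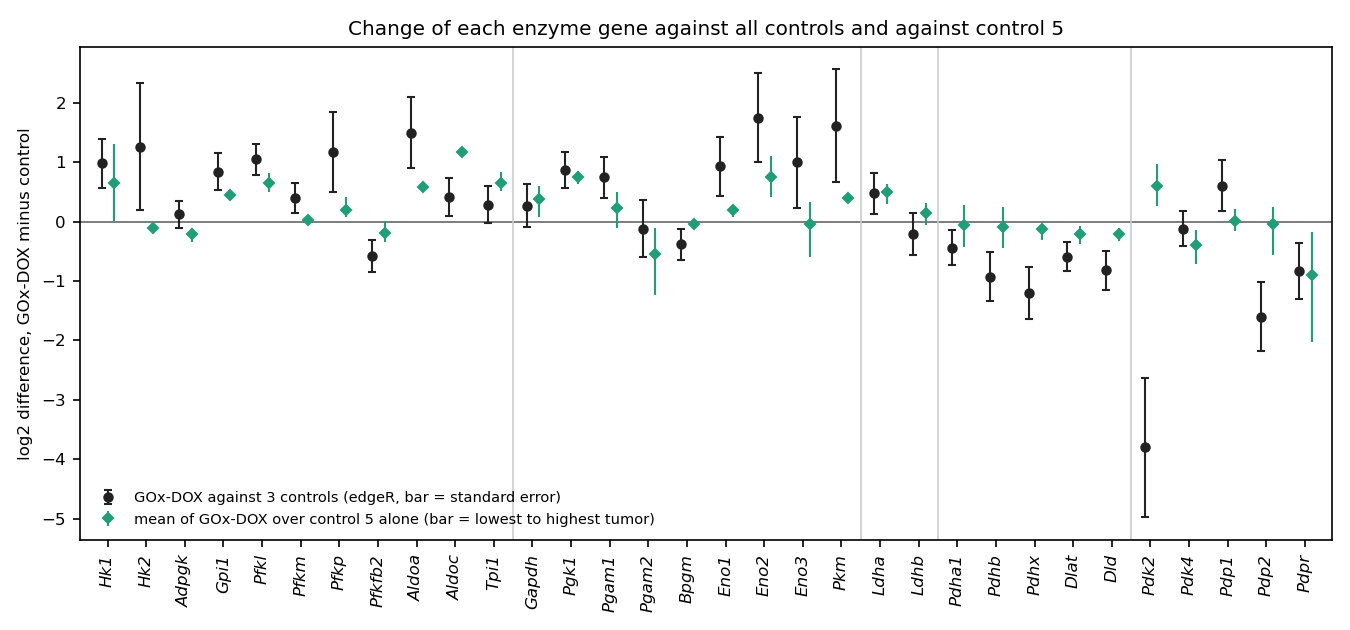
Log2 fold change of each tested member from edgeR with its SE (circles), beside the log2 ratio of the treated mean to Control 5 alone (diamonds, with bars from the lowest to the highest treated library). Hk2 (1.26) and Pdk2 (-3.80) are far from 0 against all controls and at -0.10 and 0.60 against Control 5, while Pgk1 (0.87 and 0.75) and Pfkl (1.05 and 0.65) are above 0 in both.

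In entry and the first phase, 10 of 11 tested members had higher fitted levels in the treated group, with a median log2 fold change of 0.84, and 0 were called by edgeR. Pfkl, the liver-type phosphofructokinase that catalyzes the committed step, was at 12.1, 7.85 and 7.61 RPKM in the controls and at 17.1, 21.4 and 18.6 after treatment. The groups did not overlap, and Control 5 was the nearest control. Its means were 9.19 ± 2.54 and 19.0 ± 2.22 RPKM (SD, n = 3 each), with a log2 fold change of 1.05 (SE 0.26, adjusted p = 0.247 in edgeR and 0.0130 in DESeq2). Without Control 5 the change was 1.33, with an adjusted p of 0.00128 (edgeR). Pfkm, the muscle type, was at 15.6, 11.5 and 8.76 RPKM and then 15.1, 16.1 and 16.2, so that treated tumors matched Control 5. Pfkp, the platelet type, was at 4.31, 1.70 and 0.578 RPKM and then 4.54, 5.75 and 4.56, just above Control 5. Its log2 fold change of 1.17 was 2.14 without Control 5 (edgeR adjusted p = 0.00628).

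Aldoa, the aldolase of most tissues, was at 233, 86.2 and 52.5 RPKM in the controls and at 353, 346 and 350 in the treated libraries. The treated values were almost equal to one another and all above Control 5, while the controls spread 4.43-fold. The log2 fold change was 1.5 (SE 0.60, edgeR adjusted p = 0.279), and 2.36 without Control 5 (edgeR adjusted p = 0.00102). Aldoc, its brain-type relative, was at 4.06, 7.38 and 9.20 RPKM and then 9.01, 9.26 and 9.20, where Controls 5 and 6 stood below the treated tumors and Control 7 among them. Its log2 fold change of 0.41 was 1.19 against Control 5 alone. Gpi1, which interconverts glucose and fructose phosphates, was at 60.6, 36.6 and 41.0 RPKM and then 81.7, 79.6 and 85.8, with no overlap and a log2 fold change of 0.84 (SE 0.31, edgeR adjusted p = 0.260).

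Hk2, the hexokinase typical of tumor cells, showed how far the control group was from uniform. It was at 18.5, 2.16 and 0.793 RPKM in the controls and at 17.0, 17.0 and 17.6 in the treated libraries. The treated values were thus below Control 5 and far above Controls 6 and 7, and the log2 fold change of 1.26 (SE 1.07, edgeR adjusted p = 0.524) was 3.56 without Control 5 (edgeR adjusted p = 0.000525) and -0.09 against Control 5 alone. Hk1, the housekeeping hexokinase, was at 2.96, 2.44 and 1.68 RPKM and then 3.61, 7.34 and 3.00, where GOx-DOX-LGP 2 was the highest and GOx-DOX-LGP 5 barely cleared Control 5.

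For the remaining members of the first phase the groups overlapped. Tpi1, which interconverts the triose phosphates, was at 117, 151 and 183 RPKM and then 167, 208 and 175. Adpgk, which phosphorylates glucose with ADP, lay between 3.46 and 5.34 RPKM in all libraries, and its log2 fold change of 0.12 turned to -0.07 with the hepatocyte covariate, -0.02 without Control 6 and -0.19 against Control 5 alone. Pfkfb2, which makes the activator fructose 2,6-bisphosphate, was the 1 tested member of the group with a lower fitted level, at -0.58 (SE 0.27, edgeR adjusted p = 0.323), and 0.02 with library totals.

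In the second phase, 7 of 9 members had higher fitted levels, with a median log2 fold change of 0.87, and 0 were called by edgeR. Pgk1, which makes the first ATP of the pathway, was at 179, 135 and 179 RPKM in the controls and at 299, 324 and 279 after treatment. That the controls were even rests on their TMM factors of 1.24, 0.759 and 0.569. The raw counts of Pgk1 in the controls were 9173, 3583 and 3733. Every treated value lay above every control, and on the TMM scale Control 5 was no closer to the treated tumors than Control 7. Its means were 165 ± 25.3 and 301 ± 22.6 RPKM (SD, n = 3 each), with a log2 fold change of 0.87 (SE 0.30, adjusted p = 0.247 in edgeR and 0.00699 in DESeq2). The value was 0.97 without Control 5 (edgeR adjusted p = 0.0174), and the treated mean was 1.68 times Control 5. A limit is that 53.9% of the 50-base stretches of Pgk1 transcripts also occur in another gene.

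Gapdh, which acts one step before Pgk1, was at 222, 220 and 277 RPKM and then 294, 336 and 235, with overlapping groups and a log2 fold change of 0.27 (SE 0.36, edgeR adjusted p = 0.673). The ratio of Pgk1 to Gapdh, which is taken within a library and does not depend on scaling between libraries, was 0.809, 0.615 and 0.646 in the controls and 1.02, 0.965 and 1.19 after treatment. The ratio of Pgk1 to Tpi1 was 1.53, 0.899 and 0.979 and then 1.79, 1.56 and 1.60. Both ratios were higher in every treated library than in every control. In both, Control 5 was the control nearest to the treated libraries, and for Tpi1 its 1.53 lay just below 1.56. Both were chosen after values had been seen, so no test is given.

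Pkm, the pyruvate kinase of tumors and most adult tissues, was at 214, 48.2 and 14.0 RPKM in the controls and at 279, 295 and 271 in the treated tumors. The groups did not overlap, but the controls spanned 15.3-fold and the treated mean was 1.32 times Control 5. Its log2 fold change was 1.61 (SE 0.95, edgeR adjusted p = 0.394), and 3.21 without Control 5 (edgeR adjusted p = 0.00330). Eno1, the ubiquitous enolase, was at 205, 81.8 and 81.2 RPKM and then 249, 216 and 235. Eno2, known as the neuronal enolase, was at 5.45, 2.14 and 0.572 RPKM and then 7.25, 11.7 and 8.66, with a log2 fold change of 1.74 (SE 0.75, edgeR adjusted p = 0.298). Without Control 5 the log2 fold changes were 1.55 for Eno1 and 2.77 for Eno2 (edgeR adjusted p = 0.00290 and 0.00492). Neither overlapped, and for Eno1 the treated mean exceeded Control 5 by a factor of 1.14 and for Eno2 by 1.69. Eno3, the muscle enolase, was at 55.6, 19.7 and 5.94 RPKM and then 56.5, 36.7 and 69.8, so that it overlapped and its log2 fold change of 1.00 became 2.1 without Control 5 (edgeR adjusted p = 0.0143) and -0.02 against Control 5 alone. Muscle markers were below 1 CPM in every library.

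Pgam1, the main phosphoglycerate mutase, was at 86.1, 45.4 and 49.4 RPKM and then 103, 122 and 79.6, and the lowest treated value lay below Control 5. Pgam2, the muscle type, lay between 0.619 and 1.46 RPKM in all libraries. Its log2 fold change of -0.12 turned to 0.11 with voom, 0.29 with library totals, 0.02 with the upper quartile, 0.21 without Control 5 and 0.18 without GOx-DOX-LGP 5. Bpgm, which makes 2,3-bisphosphoglycerate, was at 5.31, 5.84 and 9.15 RPKM and then 5.23, 4.86 and 5.45, with a log2 fold change of -0.38 (0.24 with library totals).

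**Figure D3:**
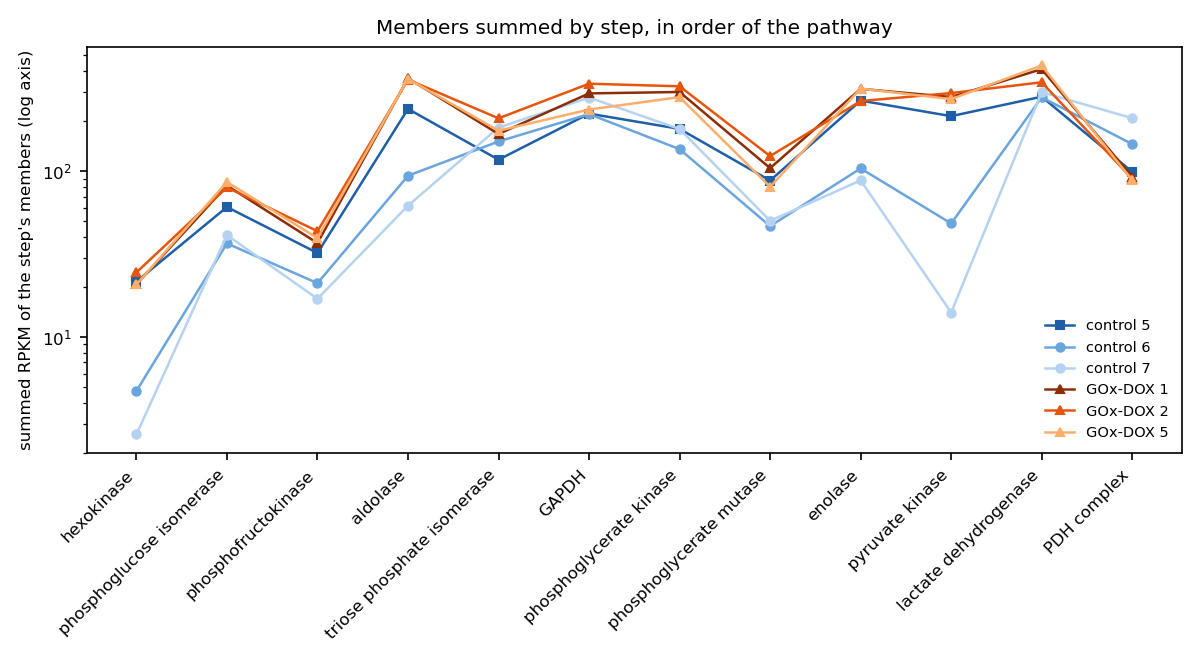
Summed level of the members at each of 12 steps in each library (points, joined by lines to guide the eye), in TMM-scaled RPKM on a log axis, in pathway order. Aldolase is at 61.7 to 237 in the controls and 355 to 362 after treatment, and the PDC is at 98.7 to 208 in the controls and 87.6 to 92.2 after treatment.

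At the branch to lactate, Ldha, which reduces pyruvate, was at 279, 275 and 297 RPKM in the controls and at 409, 340 and 431 after treatment. Like Pgk1, it was even across the controls on the TMM scale, and all treated values lay above them. The raw counts of Ldha in the controls were 21028, 10730 and 9130. The means were 283 ± 11.7 and 394 ± 47.3 RPKM (SD, n = 3 each), with a log2 fold change of 0.47 (SE 0.34, edgeR adjusted p = 0.469, DESeq2 adjusted p = 0.126). Leaving out Control 5 gave 0.49 (edgeR adjusted p = 0.168). Ldhb, the heart-type subunit, lay between 1.70 and 3.13 RPKM and gave -0.20, which turned to 0.35 with library totals, 0.10 without Control 6 and 0.16 against Control 5 alone. Ldha made up 98.9% to 99.6% of lactate dehydrogenase reads per kilobase in every library.

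At the branch to acetyl-CoA, all 5 PDC parts had lower fitted levels in the treated group, with a median log2 fold change of -0.82, and 0 were called by edgeR or DESeq2. Dld, the dihydrolipoamide dehydrogenase shared with other dehydrogenase complexes, was at 32.0, 46.8 and 68.2 RPKM in the controls and at 29.7, 28.1 and 25.5 after treatment. Pdhx, which tethers Dld to the core, was at 5.43, 10.6 and 18.3 RPKM and then 5.29, 4.38 and 5.27. Dlat, the acetyltransferase of the core, was at 16.1, 20.9 and 25.5 RPKM and then 15.2, 12.4 and 14.0. In all of these the treated values lay below every control, yet only narrowly below Control 5. Their log2 fold changes were -0.82 (SE 0.32) for Dld, -1.20 (SE 0.44) for Pdhx and -0.59 (SE 0.24) for Dlat, with edgeR adjusted p-values of 0.274, 0.257 and 0.286. Against Control 5 the treated means of these genes had log2 ratios of -0.20, -0.12 and -0.21.

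The E1 subunits, Pdha1 and Pdhb, overlapped between groups. Pdha1, the E1 alpha subunit that the kinases phosphorylate, was at 24.1, 31.7 and 38.5 RPKM and then 22.6, 29.1 and 17.9. Pdhb, the E1 beta subunit, was at 21.2, 35.3 and 57.6 RPKM and then 19.4, 15.6 and 25.0. The order of the controls was the same for all 5 PDC parts, lowest in Control 5 and highest in Control 7, as it was for the hepatocyte marker sum. Without Control 5, 4 of the 5 were called lower (Pdhb, Pdhx, Dlat and Dld), against 25.5% of all genes, and 3 of 5 lay below Control 5 in all treated libraries, against 28.4% of all genes. With library totals in place of TMM the log2 fold changes of Pdha1 and Dlat became 0.17 and 0.02. The ratio of Ldha to Pdha1 within a library, chosen after values had been seen, was 11.6, 8.68 and 7.70 in the controls and 18.2, 11.7 and 24.0 after treatment, so that GOx-DOX-LGP 2 lay at the level of Control 5.

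Among the genes that control the PDC, 1 of 5 was higher by sign and 4 lower. Pdk2, a kinase that inhibits the complex and is abundant in liver, was at 1.15, 28.1 and 44.0 RPKM in the controls and at 1.38, 2.26 and 1.60 after treatment. It had the largest difference of any member in the fit with all controls, with a log2 fold change of -3.80 (SE 1.17, adjusted p = 0.247 in edgeR and 0.00562 in DESeq2). All treated values nonetheless lay above Control 5, and against Control 5 alone the log2 difference was 0.61, a value from 1 control library that carries no spread of its own. With the hepatocyte covariate it was -0.53 (edgeR adjusted p = 0.825), and without Control 7 it was -3.07. Controls 6 and 7 are the libraries with hepatocyte marker sums of 129878 and 206727 CPM. Pdk4, the kinase induced by fasting, was at 5.10, 3.00 and 4.47 RPKM and then 3.11, 4.62 and 3.85. Its log2 fold change of -0.12 turned to 0.09 with voom, 0.35 with library totals, 0.05 with the upper quartile, 0.08 without Control 5 and 0.04 without GOx-DOX-LGP 1.

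The phosphatases that reactivate the complex split by control library. Pdp1 was at 7.32, 4.93 and 2.24 RPKM and then 6.59, 8.46 and 7.0, while Pdp2 was at 2.47, 7.55 and 11.7 and then 2.60, 1.66 and 2.92. Treated tumors thus resembled Control 5 for both, with Pdp1 higher and Pdp2 lower than in Controls 6 and 7. The log2 fold changes were 0.60 (SE 0.43, edgeR adjusted p = 0.464) and -1.60 (SE 0.58, edgeR adjusted p = 0.252). Pdpr, the regulatory subunit of the phosphatase, was at 3.87, 3.07 and 4.13 RPKM and then 1.86, 3.42 and 0.952.

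Isoforms of 1 step were compared as shares of that step's reads per kilobase, which do not depend on the scaling between libraries. Of 10 shares tested, 0 passed the threshold, since 3 libraries against 3 cannot give a p below 0.1. The Pfkl share of the phosphofructokinases was 37.9%, 37.3% and 44.9% in the controls and 46.4%, 49.5% and 47.2% after treatment, without overlap (40.0% ± 4.23 and 47.7% ± 1.59, SD, n = 3 each, two-sided exact permutation p = 0.1, adjusted 0.444). The Eno2 share of the enolases was 2.05%, 2.07% and 0.652% and then 2.32%, 4.42% and 2.76%, also without overlap (exact permutation p = 0.1, adjusted 0.444). The Hk2 share of Hk1, Hk2 and Hkdc1 was 85.8%, 45.8% and 30.8% and then 82.0%, 69.5% and 85.3%, where Control 5 fell among the treated tumors (exact permutation p = 0.4). The Pdk4 share of Pdk2 and Pdk4 was 81.6%, 9.64% and 9.24% and then 69.3%, 67.1% and 70.7%, again with Control 5 beside the treated tumors (exact permutation p = 0.4). The Pdp2 share of Pdp1 and Pdp2 was 25.2%, 60.5% and 84.0% and then 28.3%, 16.4% and 29.4% (exact permutation p = 0.3). For Pfkp, Aldoc, Pgam2, Eno3 and Ldhb the exact permutation p lay between 0.2 and 0.7.

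Other genes of the same steps, their control, pyruvate transport and lipoylation, a list of 19 of which 18 were found and 15 tested, leaned the other way. By sign 4 were higher and 11 lower, with a median log2 fold change of -0.76 beside 0.02 over all genes tested, and 0 were called by edgeR. DESeq2 called Hk3 higher and 5 lower (Pklr, Pfkfb1, Ldhd, Mpc1 and Mpc2), against 0.684% and 9.85% of all genes. All 5 of the lower genes were high in Controls 6 and 7 only. Pklr was at 0.136, 23.7 and 57.6 RPKM and then 0.718, 0.151 and 0.354. It took 32.9% and 80.4% of pyruvate kinase reads in Controls 6 and 7 and 0.0513% to 0.256% in the 4 other libraries. Mpc1 and Mpc2, which carry pyruvate into the mitochondrion, were at 4.17 and 1.63 RPKM in Control 5, at 24.1 to 36.1 and 17.6 to 25.3 in Controls 6 and 7, and at 4.35 to 4.72 and 2.07 to 2.56 after treatment. Of the other kinases of the PDC, Pdk1, a hypoxia-inducible gene, was at 6.00, 16.4 and 24.5 RPKM and then 7.78, 11.7 and 7.69, and Pdk3 at 6.05, 2.42 and 0.840 and then 5.91, 5.89 and 6.48. Hk3, a hexokinase of myeloid cells, was at 3.01, 1.66 and 1.23 RPKM and then 3.79, 5.08 and 5.45. Its log2 fold change was 1.27 (SE 0.39), with an adjusted p of 0.247 in edgeR and 0.0497 in DESeq2. It was the 1 gene of the 15 tested without overlap, while 8.87% of all genes tested were higher without overlap. Summed leukocyte markers were highest in GOx-DOX-LGP 2 and 5, where Lyz2 alone held 2262 and 989 CPM of the sum. Ptprc, of the same list, was at 116, 69.2 and 39.3 CPM and then 90.8, 115 and 116. The part of leukocytes in the Hk3 values was not tested.

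**Figure D4:**
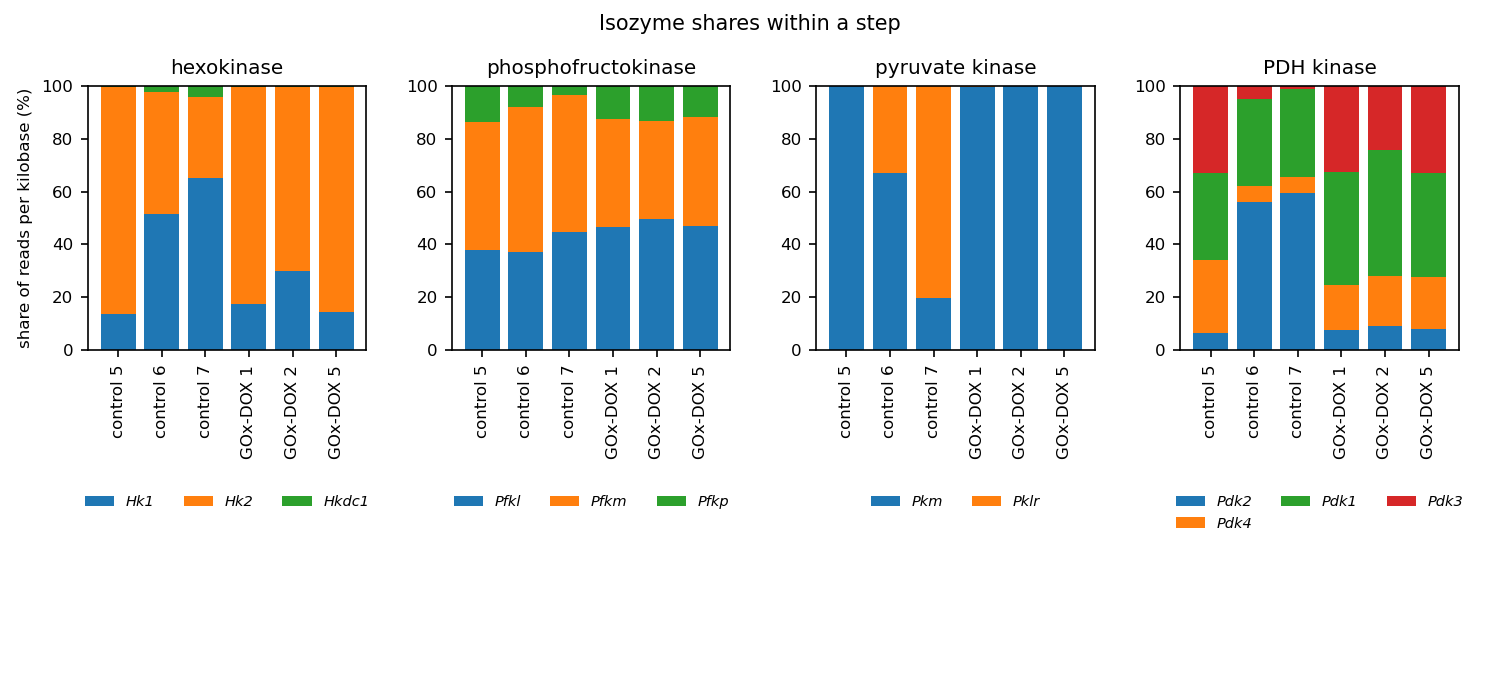
Share of each isozyme in the reads per kilobase of its step, in percent, for 4 steps and 6 libraries, over the members alone for the hexokinases and phosphofructokinases and with Pklr, Pdk1 and Pdk3 included for the others. Controls 6 and 7 show higher shares of Pklr (32.9% and 80.4%) and Pdk2 (56.3% and 59.6%) than Control 5 and the treated tumors, while the Pfkl share is 46.4% to 49.5% after treatment and 37.3% to 44.9% in the controls.

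Some counts cannot be assigned to 1 gene. Of the 50-base stretches of the member's transcripts, those also found in another gene made up 36.2% for Pgam1, 26.0% for Eno1, 25.8% for Pkm, 24.7% for Gapdh, 21% for Ldhb and 15.9% or less for each other member apart from Pgk1. The copy Eno1b took 12% to 13.7% of the counts of Eno1 and Eno1b together in the controls and 12.6% to 14.8% in the treated libraries, which overlap. Exons of Pfkp overlap Pitrm1 on the opposite strand over 748 bases and those of Pkm overlap Gm49759 on the same strand over 767 bases, and without a stated strand setting such reads could not be told apart.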

How the data were processed

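RNA from 6 orthotopic HCA-1 tumors was analysed, 3 untreated and 3 treated. The raw counts per gene are as deposited, not normalized and not pooled. The submitters' processing notes name Trimmomatic 0.38, HISAT2 2.1.0 and featureCounts 2.0.0, whereas the methods name TopHat and HTSeq, so which tools made the counts is not settled, and the genome build is not given in the sources used here. The deposited signal values are the same counts divided by 1 size factor per library (0.532 to 1.32) and were used for the gene symbols only. Aldoa has a second row with 38 counts in all libraries, which was not used.

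Tests were run in R 4.3.3 with edgeR 4.0.16 (filterByExpr, TMM, quasi-likelihood test, no covariates, all 6 libraries, Benjamini-Hochberg threshold 0.05), with DESeq2 1.42.0 and limma 3.58.1 (voom) as alternatives. RPKM used exon-union lengths of GENCODE M21. TMM factors were 1.24, 0.759 and 0.569 for Controls 5, 6 and 7 and 1.21 to 1.24 for the treated libraries. No pair of libraries was identical. Exact permutation tests used scipy 1.17.1, and figures matplotlib 3.10.9 in Python 3.11.15. Promoters were taken from RefSeq (GRCm38.p6), with 32 of 33 members matched. Every member was named, and of a list of other genes of the same steps, their control, pyruvate transport and lipoylation those described in the text. Some are not reported here. The members and lists were chosen with earlier results of these data known.

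The tests were tried on simulated data in which 200 genes differed by 2 on the log2 scale. The quasi-likelihood test recovered 198 at a dispersion of 0.05 with 15 false calls over 15038 genes. At the dispersion of these data it recovered 0 of 200 with 0 false calls over 14901 genes, DESeq2 107 with 76 false calls and voom 0 with 0 false calls.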

Additional observations from a re-analysis of the deposited data

How the results depend on the processing

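Over all genes tested, 0 were called by edgeR, 1739 by DESeq2, 9254 by limma voom with sample quality weights, and 0 to 7745 when 1 library was left out, the highest without Control 5. Of the members, 0, 3, 24 and 0 to 21 were called under the same settings, the highest again without Control 5. The number of members with an unadjusted p under 0.05, 8 in edgeR, was 27 with voom, 4 with library totals and 1 to 22 when 1 library was left out. Over all genes tested these counts were 2685, 9984, 1661 and 696 to 9026. The median log2 fold change of the members, 0.35, was 0.86 with library totals. The 13 members without overlap became 14 to 25 when 1 library was left out, the highest without Control 5. The share over all genes is not given for these settings, and fewer libraries leave less room for overlap in any gene. Of the single log2 fold changes under the alternatives, 409 kept direction and side of the threshold, 48 kept direction and passed the threshold, and 23 reversed. It reversed with library totals for Pfkfb2 (0.019), Pgam2 (0.29), Bpgm (0.24), Ldhb (0.35), Pdha1 (0.17), Dlat (0.024) and Pdk4 (0.35), with voom for Pgam2 (0.11) and Pdk4 (0.086), with the upper quartile for Pgam2 (0.025) and Pdk4 (0.046), with the hepatocyte covariate for Adpgk (-0.067), and with Control 5 as the only control for Hk2 (-0.089), Adpgk (-0.19), Eno3 (-0.021), Ldhb (0.16) and Pdk2 (0.61). With 1 library left out, values ran from -0.016 (without Control 6) to 0.35 (without Control 5) for Adpgk, from -0.36 (without Control 7) to 0.21 (without Control 5) for Pgam2, from -0.33 (without Control 5) to 0.10 (without Control 6) for Ldhb and from -0.32 (without Control 6) to 0.083 (without Control 5) for Pdk4. The difference in the Eno3 share, 2.5 percentage points, ran from -1.91 without Control 7 to 5.18 without Control 5. The cause was not tested. Of the 10 shares tested, those of the enolases, of lactate dehydrogenase and of the pyruvate dehydrogenase kinases were recomputed over all paralogs of the step and kept their direction. This was not run for the others. No paired analysis was possible because the groups share only the replicate number 5. With Control 5 as the only control, that library is assumed to vary like the treated ones. Each group held 3 libraries, and the effect of depth was not tested.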
